A study of Mus musculus with 14 samples.

Results

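The 78 genes described here encode the proteins of the mitochondrial ribosome: every protein-coding gene whose GENCODE M21 symbol begins with Mrpl or Mrps and a digit, pseudogenes left out. They were picked from the 54532 gene identifiers counted in 14 mouse heart libraries, and 49 of them are named for the large subunit (Mrpl) and 29 for the small subunit (Mrps). The libraries came from 4 hearts labelled WT (wild type), 4 labelled YG8-800, 3 KIKO-700 females and 3 KIKO-700 males. Per the labels, all mice were of the strain C57BL/6 and 180 days old, while the paper's text gives a later age. KIKO is the paper's name for its knock-in, knockout model, and both KIKO-700 groups carry the same genotype, so the comparison within it is one of sex. Hearts of WT mice from the KIKO-700 cohort are not analysed here. One heart per library was read with QuantSeq 3′ FWD, a method that counts tags near the 3′ end of each transcript. Tag counts do not grow with transcript length, so levels are given as CPM, counts scaled to library size, without division by length.

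Mitochondria translate the few proteins that their own DNA encodes, all of them core parts of the respiratory chain and ATP synthase, on ribosomes of their own. The RNA of these ribosomes comes from mitochondrial DNA, while every protein is made in the cytosol from a nuclear gene and imported. Compared with the ribosomes of bacteria, mitochondrial ribosomes hold less RNA and many added proteins, and the heart, dense in mitochondria, depends on them for oxidative metabolism. By structure, *Mrps30* and *Mrps18a* belong to the large subunit despite their names. That puts 51 members there and 26 in the small subunit, while *Mrps36* encodes a subunit of the oxoglutarate dehydrogenase complex.

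Total counts ranged from 5226233 to 11650840 per library, and mitochondrial DNA took 28.9% to 44.6% of them. The 78 genes together held 15538 to 34990 counts, or 0.272% to 0.421% of a library. Libraries of the same group differed by far more than counting error, with a chi-square per degree of freedom of 4.04 or more in every pair. *Xist*, the RNA of the inactive X chromosome, stood at 37.5 to 51.3 CPM in 5 of the 8 libraries of the YG8-800 experiment (WT 1, 2 and 4, YG8-800 1 and 3) and at 0 to 0.324 CPM in the other three, although the paper describes males only. A check of the labels of that experiment, not reported here, went against them. YG8-800 and WT below therefore mean the libraries labelled so, and a direction between them holds for those labels only. Cardiomyocyte markers summed to 24357 to 48937 CPM in the libraries labelled WT and 32226 to 47228 CPM in those labelled YG8-800, with the lowest sum in WT 2. Erythroid markers summed to 1258 to 5192 CPM in that experiment and 14198 to 20522 CPM in KIKO-700. The 7 skeletal muscle markers summed to 135 to 616 CPM in WT, lowest in WT 2 and highest in WT 4, and to 347 to 602 CPM in YG8-800. Of these, *Myh1*, *Myh2*, *Myh4* and *Tnnt3* stayed under 1 CPM, so nearly all of the sum came from *Acta1*, *Ckm* and *Mylpf*. Fibroblast markers summed to 1585 to 1982 CPM in WT and 1362 to 1685 CPM in YG8-800. In KIKO-700 females and males, fibroblast markers summed to 1352 to 1570 and 1190 to 1316 CPM. Adipocyte markers summed to 96.4 to 119 and 58.4 to 78.5 CPM there, and skeletal muscle markers to 414 to 446 and 449 to 540 CPM. The other marker sums overlapped between females and males. The part of cell content in the results below was not tested. In whole hearts fewer cells of a type and less RNA per cell cannot be told apart.

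The members lie on 17 chromosomes, with 11 on chromosome 11 and 8 on chromosome 17. Of the 78, 33 (42.3%) start within 1000 bases of a protein-coding gene on the opposite strand, against 10.8% of the 21995 protein-coding genes counted. That background was not limited to genes tested, and no share over the tested genes was computed. Counting only partners that start upstream, as was first done, these shares were 23.1% and 6.77%; the definition was widened after it was seen to miss pairs whose ends overlap. Among these pairs are *Mrpl49* with *Fau*, which encodes a protein of the cytosolic small subunit, *Mrpl36* with the complex I subunit gene *Ndufs6*, *Mrps12* with the seryl-tRNA synthetase gene *Sars2*, and *Mrps11* with *Mrpl46*, both members. On chromosome 7 (GRCm38, GENCODE M21) *Mrps11* runs from 78783119 to 78792989 on the plus strand and *Mrpl46* from 78775236 to 78783531 on the minus strand, with starts 412 bases apart and overlapping 5′ ends.

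Promoters of 69 members, from 250 bases before to 50 after the start, were found in RefSeq's table for GRCm38.p6. CCGGAAG, the core read by ETS factors such as GABPA, was present on either strand in 26 of them (37.7%), against 9.93% of all 27025 genes with a window and 20.9% of the 8343 protein-coding ones tested in YG8-800 against WT. GCGCATGCG or GCGCACGCG, forms of the site of NRF1 (nuclear respiratory factor 1), was present in 10 (14.5%), against 3.80% and 8.74%. AAGATGGCG, a form of the YY1 site, was present in 8 (11.6%), against 1.64% and 3.91%. CCAAT, which NF-Y reads, was present in 39.1% against 41.1% and 42.7%, and TATAAA in 7.25% against 15.7% and 9.01%. Both strands were searched, and CCGGAAG and AAGATGGCG can share the letters AAG. A match describes the sequence and does not show binding. The following stretches from these windows, 5′ to 3′ on the gene's strand and with the match in capitals, belong to members that the comparisons below turn on, and all but that of *Mrps27* lie at least in part in an annotated exon:
*Mrpl9* (chr3:94443298-94443327, plus strand, NRF1): aggcgcagctGCGCATGCGcggggtccttc
*Mrpl32* (chr13:14613041-14613070, minus strand, NRF1): gcggacttaaCGCATGCGCtcagcccgcgt
*Mrpl27* (chr11:94653726-94653755, plus strand, ETS): tccgcaagacCCGGAAGtagatctatcccg
*Mrps27* (chr13:99344728-99344757, plus strand, ETS): ggtaggaccaCTTCCGGcggaggcgggctc
*Mrps18a* (chr17:46110968-46110997, plus strand, ETS): cacccctgctCCGGAAGcggaagtgcacac
*Mrps11* (chr7:78783013-78783042, plus strand, YY1): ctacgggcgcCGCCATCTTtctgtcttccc

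Mean levels over the 14 libraries ran from 2.57 to 236 CPM, with a median of 30.2 CPM against 7.69 CPM over all genes tested in the YG8-800 experiment. Highest was *Mrps21*, a small-subunit protein with a bacterial counterpart, at a mean of 236 CPM. *Mrpl42* at 201 CPM, *Mrpl18* at 155 CPM, *Mrpl30* at 141 CPM and *Mrpl34* at 121 CPM followed. *Mrps21* ranged from 135 to 333 CPM in WT and 231 to 282 CPM in YG8-800, with the YG8-800 range inside that of WT. It ranged from 197 to 228 CPM in KIKO-700 females and 214 to 273 CPM in males, which overlapped. The lowest members were *Mrpl9* at 2.57 CPM, *Mrps28* at 4.91 CPM, *Mrpl23* at 5.95 CPM, *Mrps11* at 6.61 CPM and *Mrps27* at 8.62 CPM. *Mrpl9* and *Mrps28* passed the filter on low counts in the YG8-800 experiment but not in KIKO-700, so 78 members were tested in the former and 76 in the latter. Levels of the 2 experiments were scaled separately and are set side by side without a test.

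**Figure D1:**
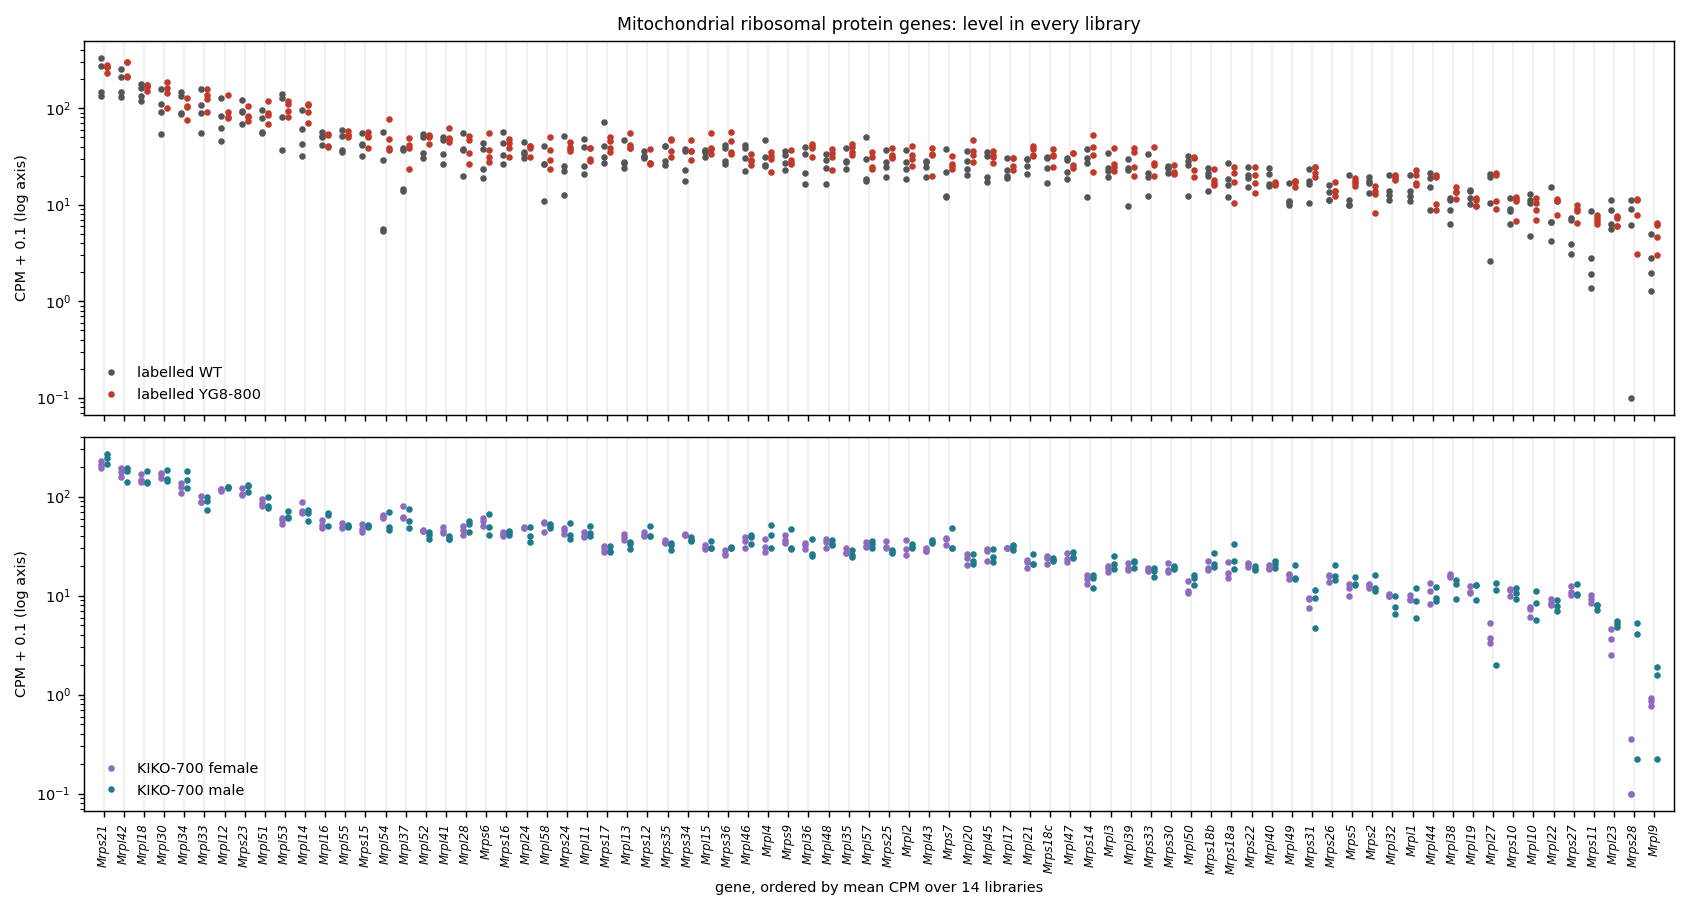
Level of each of the 78 genes in every library, as CPM plus 0.1 on a log axis, with genes ordered by their mean over 14 libraries; points are libraries, the upper panel holds the hearts labelled WT and YG8-800 and the lower panel the KIKO-700 females and males. Levels fall from 236 CPM for Mrps21 to 2.57 CPM for Mrpl9, and the WT points spread more widely than the others, with Mrps28 at 0 in WT 1.

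The comparison of YG8-800 with WT asked whether the transcripts of the mitochondrial ribosome differ between hearts with these labels. No member passed the adjusted threshold of 0.05 in edgeR's quasi-likelihood test with Benjamini-Hochberg adjustment, and neither did any other of the 11875 genes tested (0% called). At an unadjusted p under 0.05, 2 of 78 members were higher in YG8-800, *Mrpl9* and *Mrpl14*, and none was lower, where 3.04% and 3.01% of all genes tested were. The log2 fold change was above 0 for 60 of the 78 members (76.9%) against 49.5% of all genes tested, with medians of 0.28 and -0.01. The lean was alike for both subunits, with medians of 0.27 over 51 genes of the large subunit and 0.28 over 26 of the small. The groups did not overlap for 1 member, *Mrpl21*, which was higher in YG8-800, against 1.52% of all genes tested that were higher without overlap and 2.15% that were lower.

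*Mrpl9*, which encodes bL9m of the large subunit and lies on chromosome 3 from 94443318 to 94451130, was read at 2.68, 1.87, 4.86 and 1.16 CPM in WT 1 to 4 and at 6.34, 4.52, 6.04 and 2.92 CPM in YG8-800 1 to 4. Its highest WT library lay above 2 of the YG8-800 ones, so the groups overlapped at these low levels. The log2 fold change was 0.95 (SE 0.43, unadjusted p = 0.041, adjusted p = 0.816; edgeR), and the exact two-sided permutation test gave p = 0.0857, where the smallest value that 4 against 4 allows is 0.0286. *Mrpl14*, whose product uL14m lies at the face where the subunits meet, was read at 61.2, 31.5, 42.4 and 96.1 CPM in WT and at 70.8, 109, 90.1 and 108 CPM in YG8-800. WT 4 stood within the YG8-800 range and the other WT libraries below it. Its log2 fold change was 0.71 (SE 0.32, unadjusted p = 0.045, adjusted p = 0.816; edgeR; exact permutation p = 0.0857). With *Xist* level as a covariate neither of these passed an unadjusted p under 0.05, and *Mrps27* did (unadjusted p = 0.0498; edgeR). *Xist* was high in 3 of the 4 WT and 2 of the 4 YG8-800 libraries. *Mrpl21*, for bL21m, was read at 25.1, 20.8, 29.8 and 29.96 CPM in WT and at 32.5, 38.0, 32.0 and 40.9 CPM in YG8-800, all above WT. Its log2 fold change was 0.44 (SE 0.23, unadjusted p = 0.075; edgeR), with an exact permutation p of 0.0286, the smallest possible. Groups of 4 that do not overlap always give this value, so it only restates the lack of overlap.

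The next members in order of p were *Mrps27* (log2 fold change 0.68), *Mrps11* (0.96), *Mrpl49* (0.48), *Mrpl38* (0.51), *Mrpl13* (0.47), *Mrpl42* (0.47) and *Mrpl32* (0.42), with unadjusted p of 0.054 to 0.116 in edgeR. *Mrps11*, for uS11m of the small-subunit platform, was read at 2.68, 1.80, 1.27 and 8.58 CPM in WT and 7.12, 6.19, 6.60 and 7.78 CPM in YG8-800. WT 4 lay above all YG8-800 libraries and the other WT libraries below them. Its head-to-head neighbour *Mrpl46* was read at 30.2, 22.2, 41.6 and 38.1 CPM in WT and 28.8, 25.5, 28.1 and 33.3 CPM in YG8-800, with overlapping groups and a log2 fold change of -0.19 (SE 0.25). The largest fold change, 1.05 (SE 0.74, unadjusted p = 0.193; edgeR), belonged to *Mrpl54*, for mL54 near the stalk. The lowest, -0.40 (SE 0.26, unadjusted p = 0.153; edgeR), belonged to *Mrps2*, for uS2m, which was read at 13.1 to 19.2 CPM in WT and 8.15 to 15.5 CPM in YG8-800.

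**Figure D2:**
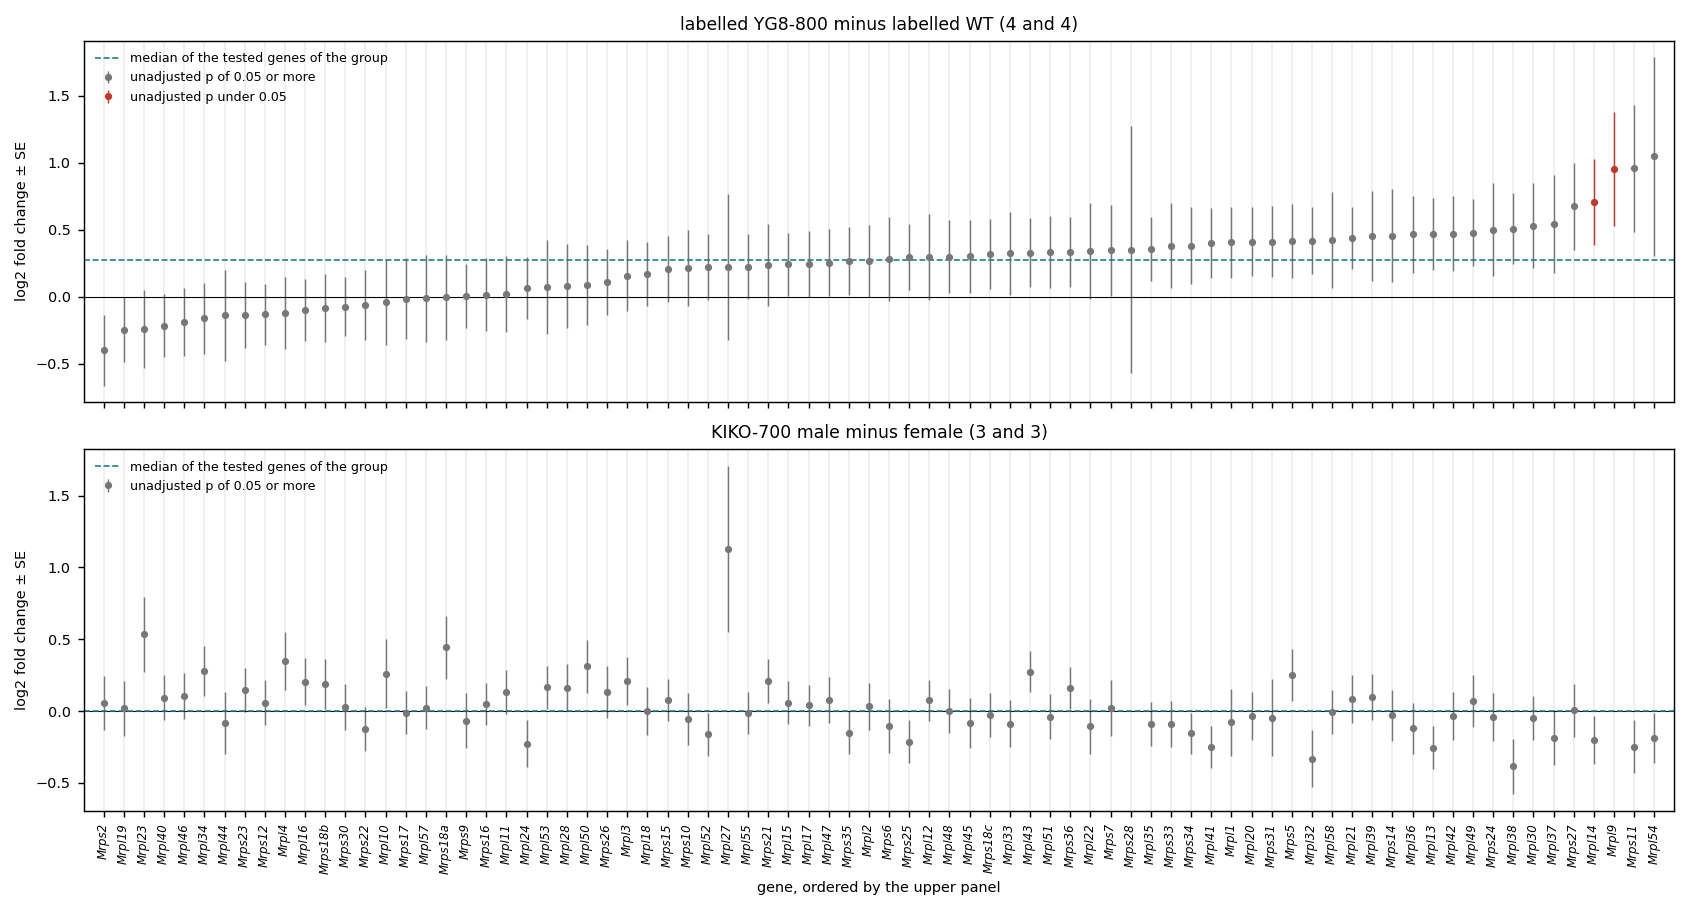
Log2 fold change with its standard error for each tested gene, YG8-800 minus WT above (4 and 4 libraries) and KIKO-700 male minus female below (3 and 3), ordered by the upper panel; red marks an unadjusted p under 0.05 and the dashed line the median. In the upper panel 60 of 78 genes lie above 0, with Mrpl9 and Mrpl14 in red, and in the lower panel 39 of 76 do.

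The size of this lean depended on which WT libraries were included. Summed over all members, WT 1 and WT 2 held 2376 and 2187 CPM, below WT 3 and WT 4 at 3281 and 3713 CPM and below YG8-800 1 to 4 at 3280, 3577, 3062 and 3783 CPM, so WT 3 and WT 4 lay inside the YG8-800 range. Against each member's median over the 8 libraries, the members of WT 1 and WT 2 stood lower by a median log2 of 0.36 and 0.53, while over all genes tested both stood lower by a median of 0.02. The 6 adipocyte markers summed to 133.9 and 130.1 CPM in WT 1 and WT 2, to 10.1 and 67.5 CPM in WT 3 and WT 4 and to 29.2 to 48.9 CPM in YG8-800, and their part in the lean was not tested. The members' median fold change was 0.16 without WT 2 and 0.39 without WT 4. Without WT 2, YG8-800 2 or YG8-800 3 no member was higher at an unadjusted p under 0.05. Without WT 4, 17 of 78 were, against 8.91% of all genes tested. At the adjusted threshold 1 of 78 members was then called, *Mrps11* (log2 fold change 1.81, adjusted p = 0.024; edgeR), beside 145 of all 12276 genes tested. Scaled by library size alone, the members' median was 0.11 where that of all genes was -0.21, and the unadjusted threshold was then passed by 171 genes higher in YG8-800 and 674 lower, in place of 361 and 357.

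By role, none of the 5 genes of the L7/L12 stalk, where translation factors land, passed an unadjusted p under 0.05 in either comparison. Neither did any of the 8 of the exit tunnel or the 8 of the central protuberance, the crown of the large subunit. In YG8-800 against WT the medians were 0.07, 0.16 and 0.22. In the stalk, *Mrpl12*, for bL12m, was read at 81.9, 45.4, 62.1 and 127 CPM in WT and at 78.7, 81.5, 91.6 and 138 CPM in YG8-800, and the groups overlapped. *Mrpl10*, for uL10m, which anchors the stalk, was read at 4.59 to 12.9 CPM in WT and 6.89 to 11.7 CPM in YG8-800. At the exit tunnel, *Mrpl22* was read at 4.11 to 15.1 CPM in WT and 7.73 to 11.4 CPM in YG8-800, and *Mrpl45*, which holds the ribosome to the inner membrane, at 17.0 to 34.9 and 26.9 to 36.1 CPM. By origin, 24 of 30 large-subunit members with a bacterial homolog and 15 of 21 found only in mitochondria lay above 0, with medians of 0.25 and 0.30. In the small subunit these were 13 of 16 and 7 of 10, with medians of 0.26 and 0.28.

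The 3 *Mrps18* paralogs descend from 1 bacterial S18 protein and sit at different places of the ribosome. Mean levels of *Mrps18a* were 18.2 ± 6.22 CPM (SD, n = 4) in WT and 18.1 ± 6.00 CPM in YG8-800 (n = 4), those of *Mrps18b* 19.6 ± 4.38 and 18.5 ± 3.14 CPM, and those of *Mrps18c*, the one at the bacterial site, 25.5 ± 6.71 and 31.8 ± 5.39 CPM. These differences were smaller than or close to the spread within a group, with unadjusted p of 0.234 to 0.993 in edgeR. *Mrps30* had the smallest SD of log2 CPM of all members over the WT libraries, at 21.1 to 25.1 CPM, and was read at 20.8 to 25.6 CPM in YG8-800.

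KIKO-700 males and females were compared to see whether these genes differ by sex within 1 genotype. None of the 76 tested members passed the adjusted threshold (edgeR; 0.0678% of 11801 genes did) and none passed an unadjusted p under 0.05, where 3.39% of all genes were higher and 3.76% lower in males. Of the 76, 39 lay above 0, with a median log2 fold change of 0.00 against 0.01 over all genes. The groups did not overlap for 4 members higher in males (*Mrpl23*, *Mrpl43*, *Mrps36* and *Mrpl12*) and 8 lower (*Mrps11*, *Mrpl38*, *Mrpl13*, *Mrpl41*, *Mrps34*, *Mrps25*, *Mrps35* and *Mrpl52*), against 5.52% and 7.13% of all genes. *Mrpl38*, for mL38 of the central protuberance, was read at 16.4, 15.5 and 15.6 CPM in females and at 13.1, 14.4 and 9.09 CPM in males, all lower. Its log2 fold change was -0.38 (SE 0.19, unadjusted p = 0.067; edgeR; exact permutation p = 0.1, the smallest that 3 against 3 allows). *Mrpl43*, for mL43, was read at 30.3, 28.0 and 28.5 CPM in females and at 36.4, 34.8 and 33.9 CPM in males, all higher. Its log2 fold change was 0.28 (SE 0.14, unadjusted p = 0.078; edgeR; exact permutation p = 0.1). For both *Mrpl38* and *Mrpl43* the permutation value follows from the lack of overlap. The others with the smallest p were *Mrpl23* (log2 fold change 0.54), *Mrps18a* (0.44), *Mrpl27* (1.13), *Mrpl4* (0.35), *Mrpl50* (0.31), *Mrpl41* (-0.25), *Mrpl13* (-0.26) and *Mrpl32* (-0.33), at unadjusted p of 0.061 to 0.120 in edgeR. The log2 fold changes of *Mrpl13*, *Mrpl32* and *Mrpl38* were thus below 0 here and above 0 in YG8-800 against WT. This held for 34 of the 76 members tested in both. Of the others, 24 were above 0 in both, 15 were above 0 between males and females only, and 3 were below 0 in both.

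The result within KIKO-700 depended on male 1, whose counts stood apart from those of males 2 and 3 (chi-square per degree of freedom 31.0 and 43.0, against 7.32 between males 2 and 3 and 4.04 to 7.17 among females). Mitochondrial DNA took 31.2% of the counts of male 1, 37.1% and 37.2% of those of males 2 and 3 and 33.3% to 33.8% of those of females, and its part in the result was not tested. Without male 1, 864 of the 12245 genes tested passed the adjusted threshold, where 8 of 11801 did with all 6 libraries. Among them were 3 of 78 members, a smaller share than over all genes, all higher in the remaining males. These were *Mrps28*, *Mrpl27* (log2 fold change 1.60, SE 0.21, adjusted p = 7.13e-05; edgeR) and *Mrps18a* (0.59, SE 0.17, adjusted p = 0.043; edgeR). *Mrps28* had 2, 0 and 0 counts in females and 29 and 52 in males 2 and 3. It passed the filter there only through these males, so its call is no separate support. At an unadjusted p under 0.05 there were 7 of 78 members higher and 7 lower, against 10.9% and 10.4% of all genes tested. With male 1 as the only male, the log2 fold changes of *Mrpl4* and *Mrpl34* were 0.71 and 0.56. The log2 fold change of *Mrpl27* then became -1.08. Of these 5 members, *Mrps28* did not pass the filter with all 6 libraries and was called there when no filter was used, and the other four were tested with all 6 and not called.

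Several members differed many-fold between libraries of the same label. *Mrps28*, for bS1m of the small subunit, on chromosome 3 from 8802146 to 8923918, had 0, 149, 42 and 42 counts in WT 1 to 4 and 114, 95, 21 and 71 in YG8-800 1 to 4. In KIKO-700 it had 2, 0 and 0 counts in females and 1, 29 and 52 in males. WT 1, the 3 females and male 1 were thus at or under 3 counts, and the other libraries were not, which is not how the labels divide them. The 0 of WT 1, with 8000073 counts, allows up to 3 counts, and no fold is given for the females. *Mrpl27*, for bL27m near the peptidyl transferase center, was low in the same libraries. It was read at 2.48, 19.2, 20.7 and 10.3 CPM in WT and 20.01, 21.2, 8.99 and 10.9 CPM in YG8-800, and at 5.16, 3.64 and 3.21 CPM in females and 1.88, 13.3 and 11.2 CPM in males. *Mrpl9* in KIKO-700 did likewise, at 0.75, 0.82 and 0.67 CPM in females and 0.13, 1.80 and 1.48 CPM in males, which is 1 to 15 counts.

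A second set was low in WT 2 and WT 3. *Mrpl54* was read at 29.1, 5.46, 5.28 and 56.9 CPM in WT, and at 48.2, 36.8, 38.93 and 76.3 CPM in YG8-800. In KIKO-700 it was read at 62.0, 60.9 and 64.5 CPM in females and 69.5, 46.0 and 49.1 CPM in males. *Mrpl37*, for mL37, showed the same dip with 36.7, 13.7, 14.4 and 38.5 CPM in WT, as did *Mrps7*, for uS7m, with 21.7, 11.8, 12.2 and 37.8 CPM. Left out together, these WT libraries took the log2 fold changes of *Mrpl37* and *Mrps7* from 0.55 and 0.35 to -0.00031 and -0.16. WT 2 and WT 3 were the lowest WT libraries of both genes and were chosen after seeing the data. The fall in fold change thus follows from that choice. Over all members, 37 of the 77 with counts in each WT library differed more than 2-fold between the lowest and highest WT library, against 10 of 78 in YG8-800, 0 of 77 in females and 5 of 78 in males. The median SD of log2 CPM was 0.43, 0.26, 0.12 and 0.18, below that of all genes tested in each group (0.50, 0.36, 0.18 and 0.28). Across the 78 members, the deviation of a library from the median correlated with transcript GC content at Spearman's rho of 0.26 in WT 1, -0.33 in WT 2, -0.26 in WT 3 and 0.32 in WT 4, and between -0.28 and 0.29 in YG8-800. Across 10583 genes these values were 0.04, -0.31, -0.26 and 0.45 in WT and between -0.15 and 0.16 in YG8-800. The points share their libraries, and the part of GC content in the results was not tested.

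**Figure D3:**
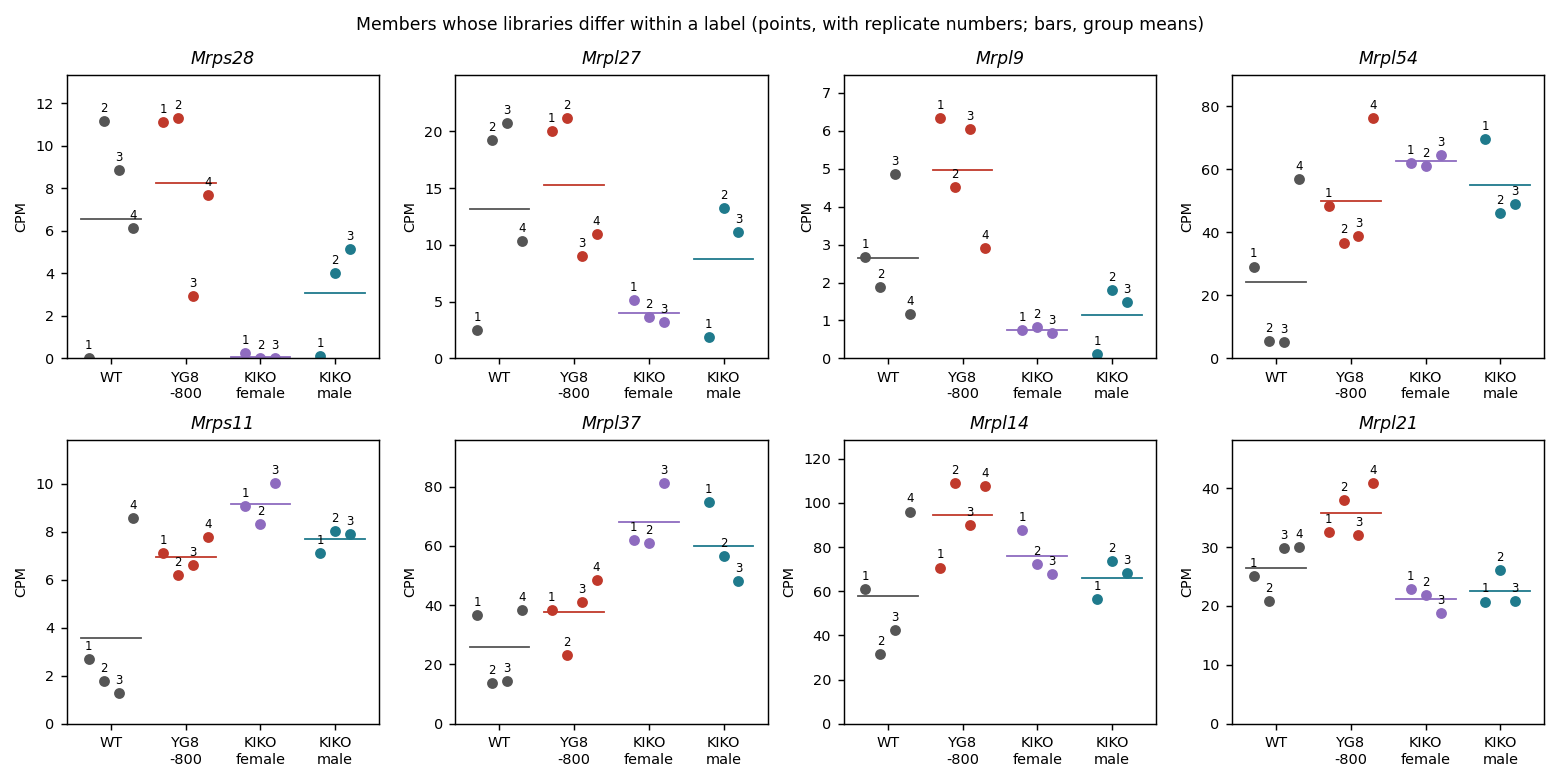
CPM of 8 members in each library, on linear axes from 0, with points numbered by replicate and bars at group means. Mrps28 and Mrpl27 are low in WT 1, in the KIKO-700 females and in male 1, Mrpl54 and Mrpl37 are low in WT 2 and WT 3, and Mrpl21 alone of the 8 has all YG8-800 points above all WT points.

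The other genes of mitochondrial translation had few members past an unadjusted p under 0.05, and the difference between their medians and that of the ribosomal proteins was not tested. Of all genes tested, 3.04% were higher and 3.01% lower at that threshold in YG8-800, and 3.39% and 3.76% in KIKO-700 males. The 5 mitoribosomal proteins with other symbols (*Dap3*, *Ptcd3*, *Chchd1*, *Aurkaip1* and *Gadd45gip1*) had a median log2 fold change of 0.33 in YG8-800 against WT, with 4 above 0 and none past that threshold. Of 15 translation factors and mRNA-binding partners, 7 lay above 0, with a median of -0.07, and 1 was higher at that threshold. This was *Slirp*, whose product holds mitochondrial mRNA together with LRPPRC, at 36.5, 45.1, 56.2 and 74.5 CPM in WT and 103, 108, 69.3 and 103 CPM in YG8-800. Its log2 fold change was 0.86 (SE 0.27, unadjusted p = 0.007, adjusted p = 0.786; edgeR), while that of *Lrpprc* was -0.13. In KIKO-700 *Slirp* was lower in males (log2 fold change -0.38, SE 0.16, unadjusted p = 0.030; edgeR) and *Gfm2*, a ribosome recycling factor, higher (0.46, SE 0.21, unadjusted p = 0.047; edgeR).

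Among 29 genes of assembly and rRNA modification, 2 were higher and 1 lower in YG8-800 at an unadjusted p under 0.05, with a median of 0.06. *Tfb1m*, the methyltransferase of the small-subunit rRNA, was read at 2.103, 1.95, 1.90 and 2.18 CPM in WT and 4.49, 3.21, 3.79 and 4.87 CPM in YG8-800, without overlap (log2 fold change 1.01, SE 0.33, unadjusted p = 0.008; edgeR). *Mrm3*, a methyltransferase of the large-subunit rRNA, was higher (0.88, SE 0.35, unadjusted p = 0.024; edgeR) and the helicase gene *Ddx28* lower (-0.75, SE 0.34, unadjusted p = 0.042; edgeR). In KIKO-700, 1 of 27 passed, *Eral1*, a chaperone of the small-subunit rRNA, which was higher in males (0.66, SE 0.23, unadjusted p = 0.013; edgeR). Of 21 aminoacyl-tRNA synthetases and related enzymes, 2 were lower in YG8-800, *Mars2* (-0.97, SE 0.33, unadjusted p = 0.011; edgeR) and *Hars2* (-0.70, SE 0.31, unadjusted p = 0.042; edgeR), and *Mars2* was higher in KIKO-700 males (0.60, SE 0.27, unadjusted p = 0.041; edgeR). Of 11 regulators of mitochondrial biogenesis, 1 was higher in YG8-800, *Tfb2m*, a factor of mitochondrial transcription (0.96, SE 0.32, unadjusted p = 0.009; edgeR). None of these passed the adjusted threshold. The shares of all genes past the unadjusted one were 3.04% higher and 3.01% lower in YG8-800, and 3.39% and 3.76% in males.

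The RNAs of the ribosome itself, *mt-Rnr1* and *mt-Rnr2*, took 0.331% to 2.78% and 1.37% to 8.24% of counts in the YG8-800 experiment. In KIKO-700 they took 0.0786% to 0.194% and 0.177% to 0.383%. The paper names a library kit for mRNA, so these are shares of tags and do not measure rRNA content. The experiments were not tested against each other. Log2 fold changes were -0.03 (SE 0.72) and 0.16 (SE 0.69) between YG8-800 and WT and 0.04 (SE 0.35) and -0.01 (SE 0.32) between males and females.

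Beside other large groups, the members held a middle place in YG8-800 against WT. The 76 nuclear genes of the respiratory chain and ATP synthase had a median log2 fold change of 0.40, with 70 above 0 and 4 higher at an unadjusted p under 0.05, and the 80 tested cytosolic ribosomal protein genes a median of 0.14, with 52 above 0, 9 higher and 1 lower. In KIKO-700 both had medians below 0 in males (-0.15 over 75 genes and -0.14 over 80), with 4 and 18 lower and 2 and 1 higher at that threshold, while the members' median was 0.00 and none passed. Over all genes tested, 3.04% were higher and 3.01% lower in YG8-800 at that threshold, and 3.39% higher and 3.76% lower in males. These are counts side by side, and the difference between lists was not tested.

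**Figure D4:**
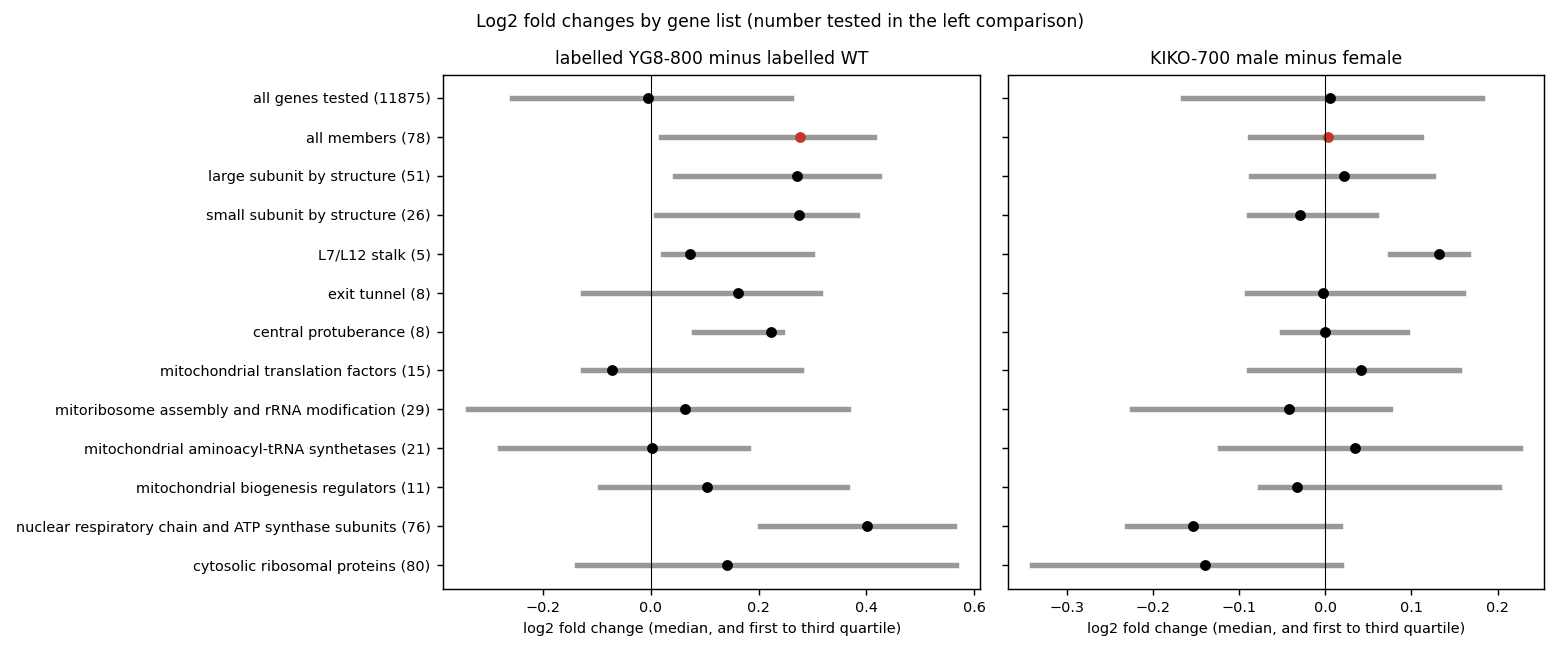
Median log2 fold change (points) with quartiles (bars) of gene lists, YG8-800 minus WT on the left and KIKO-700 male minus female on the right, with the number tested on the left in brackets; the red points are the 78 and 76 members. The members' medians are 0.28 and 0.00, those of the respiratory chain genes 0.40 and -0.15.

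Pseudogenes named after members drew counts as well, and whether these tags came from the copy or the parent cannot be told apart here. *Mrpl23-ps1* was read at 31.4 to 73.0 CPM in WT, where *Mrpl23*, for uL23m of the exit tunnel, was read at 5.46 to 11.05 CPM. With the copy's counts added, the log2 fold change of *Mrpl23* between KIKO-700 males and females went from 0.54 to -0.076. *Mrps36-ps1* was read at 11.95, 12.3, 12.2 and 22.5 CPM in WT and 26.3, 25.9, 16.9 and 32.5 CPM in YG8-800 (log2 fold change 0.79, SE 0.29, unadjusted p = 0.017; edgeR), and was lower in KIKO-700 males than in females (-0.52, SE 0.16, unadjusted p = 0.007; edgeR). *Mrps36* itself was read at 26.3 to 41.8 CPM in WT and 33.0 to 56.4 CPM in YG8-800, and with its copies added its log2 fold change rose from 0.34 to 0.59 (unadjusted p = 0.040; edgeR), while that between males and females went from 0.16 to -0.12. *Mrps36-ps2* and *Mrpl48-ps* were also higher in YG8-800 at an unadjusted p under 0.05 (log2 fold changes 2.14 and 1.22; edgeR), and *Mrps36-ps3* had at most 1 count in a library. In 5 members another annotated gene on the same strand overlaps the last 500 bases of the transcript, namely in *Mrpl2*, *Mrpl33*, *Mrpl51*, *Mrpl53* and *Mrps6*. Their counts are uncertain to that extent.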

How the data were processed

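Hearts were read with Lexogen QuantSeq 3′ FWD. The authors deposited whole-number counts of reads per Ensembl gene for each library, without normalization. The submitters' processing notes name STAR 2.5.0a, HTSeq 0.6.1 and GRCm38.p6, while the paper's methods name other tools; this was not reconciled. Of 54532 gene identifiers, 54495 were matched to GENCODE M21. Groups were taken from the labels. Items withheld for evaluation are not reported. Libraries of a group are separate samples by their labels, and p-values measure the spread between them.

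In R 4.3.3, each comparison was fitted alone with edgeR 4.0.16 (filterByExpr, TMM, robust quasi-likelihood test, Benjamini-Hochberg adjustment, threshold 0.05). CPM used TMM library sizes of its experiment, and log2 CPM a prior count of 2. SE is the fold change divided by the root of F. Exact two-sided permutation tests compared mean log2 CPM (scipy 1.17.1). The fit was also run on simulated data, an outcome not reported here, and no result above rests on it. Alternatives used limma 3.58.1 and DESeq2 1.42.0, other scalings and filters, and subsets of libraries.

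Members and lists were chosen with earlier results of these data known. Named genes are the 10 members with the smallest p per comparison, those with p under 0.05, the 5 highest and 5 lowest by mean CPM, those not passing the filter, the *Mrps18* paralogs, *Mrps30* and *Mrps36*, for each list at most 4 genes, by p, the mitochondrial rRNAs and pseudogenes of members. *Mrpl21*, *Mrpl46*, *Mrpl37*, *Mrps7* and *Mrps2*, and members named as examples of pairs, roles or non-overlapping groups, were picked after their values were seen where they fall outside this rule.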

Additional observations from a re-analysis of the deposited data

Results flagged for a closer look

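Among 27 members looked at in the WT and YG8-800 groups of 4, that is 54 groups, 1 library lay far from the others of its group on the log2 scale: *Mrps28* in WT 1, at 0 CPM where the other WT libraries lay between 6.11 and 11.2 CPM (gap over range 0.85, above Dixon's limit for 4 samples). Chance would mark about 1 group in 20. Without WT 1 the log2 fold change of *Mrps28* between YG8-800 and WT was -0.077 in place of 0.35.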

How the results depend on the processing

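In YG8-800 against WT, the count of members higher at an unadjusted p under 0.05 was 2, against 3.04% of all genes. It became 1 with upper-quartile factors (2.61%), at least 10 counts in every library (2.76%) or *Xist* as a covariate (3.34%). It was 0 with library size alone (1.44%) and 4 with limma-voom or limma-trend (5.57% and 4.79%). With all 14 libraries in 1 fit it was 5 (4.74%), and with a library left out 0 to 17, the 17 without WT 4 (8.91%). Under each of these none was lower. The members' median stayed above 0 throughout, at 0.11 (library size alone) to 0.39 (without WT 4), and 0.16 to 0.39 with a library left out. The count past the adjusted threshold was 0 to 1 with a library left out and 0 otherwise. In all genes, DESeq2 called 7, the fit of all 14 libraries 1 and the fit without a filter 107, where the count of the report was 0 and 718 had an unadjusted p under 0.05.

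In KIKO-700, the count past the adjusted threshold was 0, and became 1 without a filter (*Mrps28*) and 0 to 3 with a library left out. Leaving out males 2 and 3 together was a choice made after seeing the data. It leaves 1 male, so no count of genes passing is given for it. Members higher at an unadjusted p under 0.05 were 0, and became 3 without a filter (3.46% of all genes). They were 1 with limma-trend (3.07%) or all 14 libraries in 1 fit (1.01%), and 0 to 7 with a library left out. The 7 came without male 1 (10.9%). Members lower were 0, and became 0 to 7 with a library left out, with the 7 again without male 1 (10.4% of all genes). The median ranged from -0.02 (upper-quartile factors) to 0.09 (without males 2 and 3), and from 0.01 to 0.06 with a library left out. All-gene calls went from 8 to 864 without male 1, 105 without a filter, 18 with DESeq2, 2 with at least 10 counts in every library, 0 with all 14 libraries in 1 fit, and 4 without female 1, female 3 or male 2. The causes were not tested.

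With the replicate number as a block, 5 of 78 members were higher in YG8-800, against 5.04% of all genes (*Mrpl54*, *Mrps11*, *Mrpl9*, *Mrpl14* and *Mrpl37*). In KIKO-700 males 1 of 76 was higher (*Mrps18a*), against 2.36% of all genes. Deviations of same-numbered libraries correlated at -0.23, 0.25, -0.03 and 0.13 in the first experiment and at -0.16, -0.04 and -0.19 in the second. Differently numbered libraries were not compared, so these values cannot tell whether the numbers pair the libraries.

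Of the named genes followed under every alternative, those whose fold change turned with a library left out were those of *Mrpl27* (-0.13 to 0.50) and *Mrps28* (-0.077 to 0.81) in YG8-800 against WT, both lowest without WT 1. Between males and females they were *Mrpl48-ps* (-0.38 to 0.12, highest without male 1) and *Mrps36-ps2* (-0.42 to 0.0079, highest without female 1). *Mrpl37* (-0.00031) and *Mrps7* (-0.16) turned without WT 2 and WT 3, a choice also made after seeing the data. Between males and females *Mrpl23* (-0.076) and *Mrps36* (-0.12) turned with pseudogenes added, and *Mrpl27* (-1.08) and *Mrpl23-ps1* (0.091) without males 2 and 3. Members under 10 CPM, such as *Mrpl9* with 1 to 65 counts, are limited by depth.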
